A study of Mus musculus with 18 samples.

Results

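Apolipoproteins are the protein coat of the lipoprotein particles that carry cholesterol and triglycerides in blood, and the liver makes most of them. This account covers 10 apolipoprotein genes in mouse liver, chosen by name: Apoa1, Apoa2, Apoa4, Apoa5, Apob, Apoc1, Apoc2, Apoc3, Apoe and Apom. All probe sets (groups of short probes read as 1 value) whose only gene symbol is one of these names were taken, which gave 16 of the 45037 probe sets on the array, with 4 for Apoa1, 2 each for Apoa4, Apob and Apom, and 1 for each other gene. The rule uses names alone, though the genes were picked with earlier results of these data known.

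The mice were males started at 5 weeks of age, of the strain written C56BL/6J in the sample labels and C57BL/6J in the growth protocol. For 20 weeks they ate plain AIN93G diet (control), or that diet with 0.05% quercetin or with 1% quercetin, a plant flavonol, and each diet was fed to 12 mice housed 3 per cage. Liver RNA of 6 mice per diet was hybridised to Affymetrix arrays, 1 array for each mouse and 18 in all. Which cage a mouse came from is not known here. The p-values rest on the spread between these mice, and those of limma, the fit used below, also on the spread over all probe sets.

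In liver, apolipoprotein genes are transcribed by hepatocytes under control of nuclear receptors such as HNF4A and PPARA, and of the fasting-induced factor CREB3L3. Apob is the structural protein of the triglyceride-rich particles and of the low-density particles made from them, while Apoa1 and Apoa2 are the main proteins of high-density lipoprotein. Apoc2 activates lipoprotein lipase, the enzyme that releases fatty acids from the particles, Apoa5 enhances that lipolysis and Apoc3 inhibits it. Apoc1 hinders particle uptake, Apoe is a ligand of the uptake receptors, Apoa4 promotes secretion of triglyceride-rich particles and Apom binds sphingosine 1-phosphate on high-density lipoprotein. In the mouse annotation, Apoa1, Apoc3, Apoa4 and Apoa5 are neighbours in that order on chromosome 9, and Apoc2, Apoc4, Apoc1 and Apoe on chromosome 7. Apoa2 lies on chromosome 1, Apob on chromosome 12 and Apom on chromosome 17.

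Promoter windows from RefSeq (build GRCm38.p6, 250 bases before the start site and 50 after it) were found for 8 of the 10 genes, with Apoc1 and Apoc3 the others. The windows of Apoa4 and Apom are shown because these genes varied most between mice among those with agreeing probe sets, and the window of Apob because its bright probe set hardly varied. They lie at chr9:46240594-46240893 on the plus strand for Apoa4, chr17:35131752-35132051 on the minus strand for Apom and chr12:7977427-7977726 on the plus strand for Apob. Capitals mark matches to 4 motifs searched on both strands, which were chosen with the sequences in view: CAAAGTNCA, bound by HNF4-type receptors, AGGTCA, the core of nuclear receptor sites, TATAAA, and CACGTG, the E-box. No match of these motifs overlapped another in the windows shown.
Apoa4: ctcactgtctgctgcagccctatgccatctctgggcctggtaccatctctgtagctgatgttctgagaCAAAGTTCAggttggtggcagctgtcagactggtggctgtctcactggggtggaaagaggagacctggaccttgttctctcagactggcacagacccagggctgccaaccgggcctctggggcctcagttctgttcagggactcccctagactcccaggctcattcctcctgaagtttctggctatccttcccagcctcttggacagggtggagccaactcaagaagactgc
Apom: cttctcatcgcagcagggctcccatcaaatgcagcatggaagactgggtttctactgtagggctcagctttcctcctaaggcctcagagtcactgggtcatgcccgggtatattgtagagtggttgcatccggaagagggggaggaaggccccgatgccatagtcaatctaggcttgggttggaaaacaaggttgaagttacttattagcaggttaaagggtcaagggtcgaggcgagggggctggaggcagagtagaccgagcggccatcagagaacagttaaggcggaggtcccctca
Apob: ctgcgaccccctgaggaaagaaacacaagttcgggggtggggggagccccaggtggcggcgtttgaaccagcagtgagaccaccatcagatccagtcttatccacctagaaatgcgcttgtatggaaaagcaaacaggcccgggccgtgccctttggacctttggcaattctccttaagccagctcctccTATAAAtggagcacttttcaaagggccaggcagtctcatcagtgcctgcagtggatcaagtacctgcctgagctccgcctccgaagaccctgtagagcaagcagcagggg
Of the 12 windows of the 8 genes, the Apoa4 window alone held CAAAGTNCA, with the match CAAAGTTCA starting at position -182, against 1.41% of all 32851 mouse promoter windows. TATAAA was in 5 of the 12 windows (Apoa2, both of Apoa5, Apob and Apoe) against 13.6% of all windows, AGGTCA in 2 (Apoa2 and Apoc2) against 16.3%, and CACGTG in both Apoa5 windows against 7.15%. The 2 Apoa5 windows overlap and hold the same TATAAA and the same CACGTG, so each of these is 1 site counted in both windows. All these counts are descriptions of letters, and the Apom window held none of the 4 motifs.

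Values are log2 of the deposited intensity plus 16, quantile normalised over the 18 arrays, which gives every array the same distribution of values. Tests used limma on the 27022 probe sets brighter than the 40th percentile, with p adjusted by the Benjamini-Hochberg method over all of them, and a probe set was called at an adjusted p under 0.05. All 16 apolipoprotein probe sets passed that filter. The arrays as deposited were not on a common scale, with medians over all probe sets between 14.2 and 21.9 in intensity. The hepatocyte genes Alb and Ttr had medians of 13.4 and 13.5 in log2 value on the control diet. Over the 7 hepatocyte markers on the array, summed deposited intensity lay between 65245 and 74580 in control mice. It lay between 64202 and 72629 in mice at 0.05% and between 59236 and 66113 in mice at 1%. No hepatocyte marker was called. At 1% their median log2 difference from control mice was -0.06. Of the 7, 2 had an unadjusted limma p under 0.05, beside 8.52% of all genes. Fgb was among them and was higher at 1%, by 0.17 ± 0.08 (SE) in log2 after quantile normalisation. The part of these markers in the apolipoprotein values was not tested. The files give no scan date or other batch. RNA came from whole liver, so fewer cells of a type and less RNA per cell cannot be told apart.

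None of the 16 probe sets was called in any comparison. The smallest adjusted p of limma was 0.752 for 1% quercetin against control and 0.783 for 0.05% against control. Between the doses it was 0.369, and it was 0.479 in the test for any difference among the 3 diets. Over all probe sets tested, the called share was 0.0074% (1% against control), 0.0037% (0.05% against control), 0.0111% (1% against 0.05%) and 0.0111% (any of the 3 diets). The called ones, named after their values were seen, were Tead1 and Cfap298 for 1% against control, Cfap298 for 0.05% against control, and Nav2 and 2 unnamed probe sets between the doses. At an unadjusted p under 0.05, 0 of 16 apolipoprotein probe sets differed for 1% against control, beside 7.92% of all probe sets. It was 1 of 16 for 0.05% against control, beside 6.06%, 3 of 16 for 1% against 0.05%, beside 9.33%, and 1 of 16 among the 3 diets, beside 8.58%. Those 3 were both Apoa4 probe sets and the dim Apob probe set, so they come from 2 genes. The median log2 difference of the 16 was -0.01 at 1% and 0.01 at 0.05%, both against control, and 0.01 between the doses, beside medians of 0.0009, -0.0011 and -0.0008 over all probe sets.

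**Figure D1:**
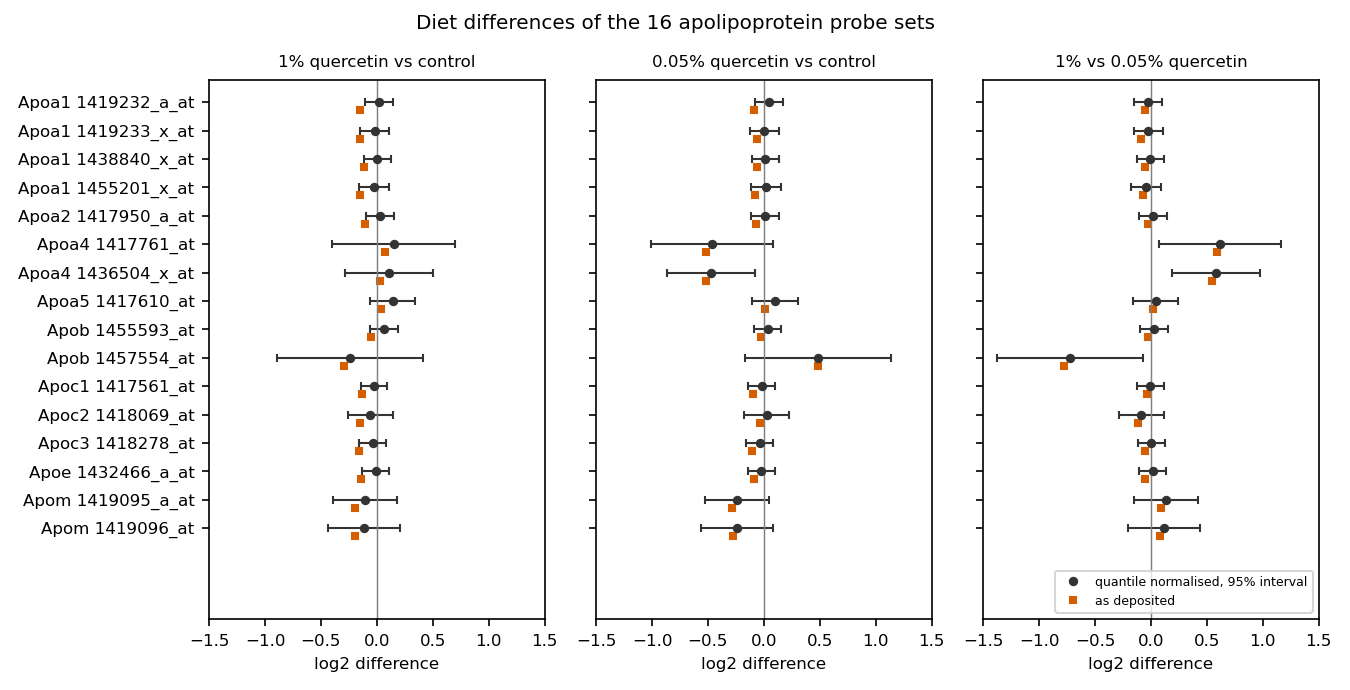
Log2 differences between diets for the 16 apolipoprotein probe sets, one row each. Black points are quantile normalised values with the 95% interval of the limma fit, and orange squares are the same differences in values as deposited. The widest intervals belong to Apoa4 and the dim Apob probe set 1457554_at, and the orange squares of Apoa1, Apoa2, Apoc1, Apoc3 and Apoe lie left of 0 in all 3 panels.

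Apoa4 had the largest differences between diets among the genes whose probe sets agreed, with low values on the 0.05% diet. On probe set 1436504_x_at the log2 value ran from 11.38 to 12.45 with a median of 11.85 on the control diet, from 11.19 to 11.73 with a median of 11.36 at 0.05%, and from 11.41 to 12.47 with a median of 12.05 at 1%. All 6 mice at 0.05% lay below the control mean and 3 of them below every control mouse, while 5 of 6 mice at 1% lay above every mouse at 0.05%. The log2 difference was -0.47 ± 0.19 (SE) for 0.05% against control (adjusted p = 0.783, limma), 0.58 ± 0.19 for 1% against 0.05% (adjusted p = 0.369) and 0.11 ± 0.19 for 1% against control (adjusted p = 0.926). In deposited intensity the medians were 3603 on the control diet, 2703 at 0.05% and 4063 at 1%.

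The second Apoa4 probe set, 1417761_at, gave log2 values of 10.81 to 12.34 on the control diet, 10.82 to 11.42 at 0.05% and 10.77 to 12.17 at 1%, so the groups overlapped. Its log2 differences were -0.47 ± 0.26 for 0.05% against control (adjusted p = 0.848, limma), 0.62 ± 0.26 for 1% against 0.05% (adjusted p = 0.482) and 0.15 ± 0.26 for 1% against control (adjusted p = 0.928). Exact permutation tests over the 12 mice, two-sided, gave p = 0.0455 (1436504_x_at) and p = 0.158 (1417761_at) for 0.05% against control, and p = 0.0108 and p = 0.0238, in the same order, for 1% against 0.05%. The smallest p that 6 against 6 mice allow is 0.00216. These are 4 of the 48 such tests on the members after quantile normalisation, with no adjustment. Exact p was under 0.05 for 2 of the 16 member probe sets for 0.05% against control (Apoa4 1436504_x_at and Apoc3), beside 6.55% of all probe sets, and for 2 of 16 (both of Apoa4) for 1% against 0.05%, beside 9.43%. Both Apoa4 probe sets read 1 gene and count as 1 result, and the _x_ in a name marks probes that may also match other sequences.

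Within diets the 2 Apoa4 probe sets followed each other from mouse to mouse (r = 0.98 over 18 mice after removing diet means, a description, since both were read on the same arrays). The spread between mice of 1 diet was 0.50 (SD, log2) on 1417761_at and 0.35 on 1436504_x_at, beside a median of 0.24 over all probe sets tested. It was wider among control mice (0.67 and 0.44) and mice at 1% (0.48 and 0.36) than among mice at 0.05% (0.25 and 0.21), a difference in spread that was not tested. Control replicates 2 and 3 had the highest values of their diet. Without control replicate 3 the difference of 0.05% against control was -0.30 on 1417761_at and -0.36 on 1436504_x_at. For 1% against control, leaving out 1 mouse gave 0.012 to 0.32 and 0.010 to 0.23 on these.

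Apoa4 is also a product of enterocytes. Of 8 enterocyte markers on the array, 4 passed the filter, and Alpi, Cdx2 and Slc5a1 stayed at log2 values of 5.68 or less in all mice, whereas Fabp2 ran from 9.72 to 11.79 on the control diet, 10.09 to 11.59 at 0.05% and 10.01 to 11.19 at 1%. Neutrophil markers had a median log2 difference of -0.59 for 0.05% against control and 0.60 for 1% against 0.05% over 5 tested genes. None was called, and 3 were at an unadjusted p under 0.05 in each, beside 5.22% and 8.74% of all genes. The summed deposited intensity of neutrophil markers, over the 8 on the array, ran from 144 to 1313 on the control diet, 156 to 265 at 0.05% and 282 to 889 at 1%. Within diets the mean of the tested neutrophil markers had r = -0.41 with Apoa4 1436504_x_at, and that of the enterocyte markers r = 0.20. Sinusoidal endothelium markers had 5 of 8 genes at an unadjusted p under 0.05 for 0.05% against control, beside 5.22% of all genes. None was called, and their median was 0.22. The part of these cells in the Apoa4 values was not tested.

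Apom, the carrier of sphingosine 1-phosphate, had values at 0.05% that spread across those of the control diet. Probe set 1419095_a_at ran from 11.30 to 12.00 with a median of 11.88 on the control diet, from 11.09 to 11.93 with a median of 11.55 at 0.05%, and from 11.49 to 11.83 with a median of 11.69 at 1%. Of the 6 mice at 0.05%, 4 lay below the control mean and 2 above it. The log2 difference was -0.24 ± 0.14 for 0.05% against control (adjusted p = 0.849, limma), -0.11 ± 0.14 for 1% against control (adjusted p = 0.887) and 0.13 ± 0.14 for 1% against 0.05% (adjusted p = 0.794). The second Apom probe set, 1419096_at, gave -0.24 ± 0.15, -0.12 ± 0.15 and 0.12 ± 0.15 in the same order, and followed the first within diets (r = 0.94). Control replicate 3 was the lowest control mouse on both, and without it the differences of 0.05% against control were -0.34 and -0.35, and those of 1% against control -0.21 and -0.23. Without 0.05% replicate 5 the differences of 0.05% against control were -0.15 and -0.15, and the smallest for 1% against control with 1 mouse left out were -0.065 (without control replicate 2) and -0.050 (without 1% replicate 4). The differences between the doses ran from 0.041 to 0.21 and from 0.033 to 0.20. Within diets the mean of the 4 tested enterocyte markers, Fabp2 among them, had r = -0.71 with 1419095_a_at. Alpi, Cdx2 and Slc5a1 stayed at 5.68 or less and Fabp2 ranged more widely, so that mean may largely follow Fabp2. The part of these markers in the Apom values was not tested.

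**Figure D2:**
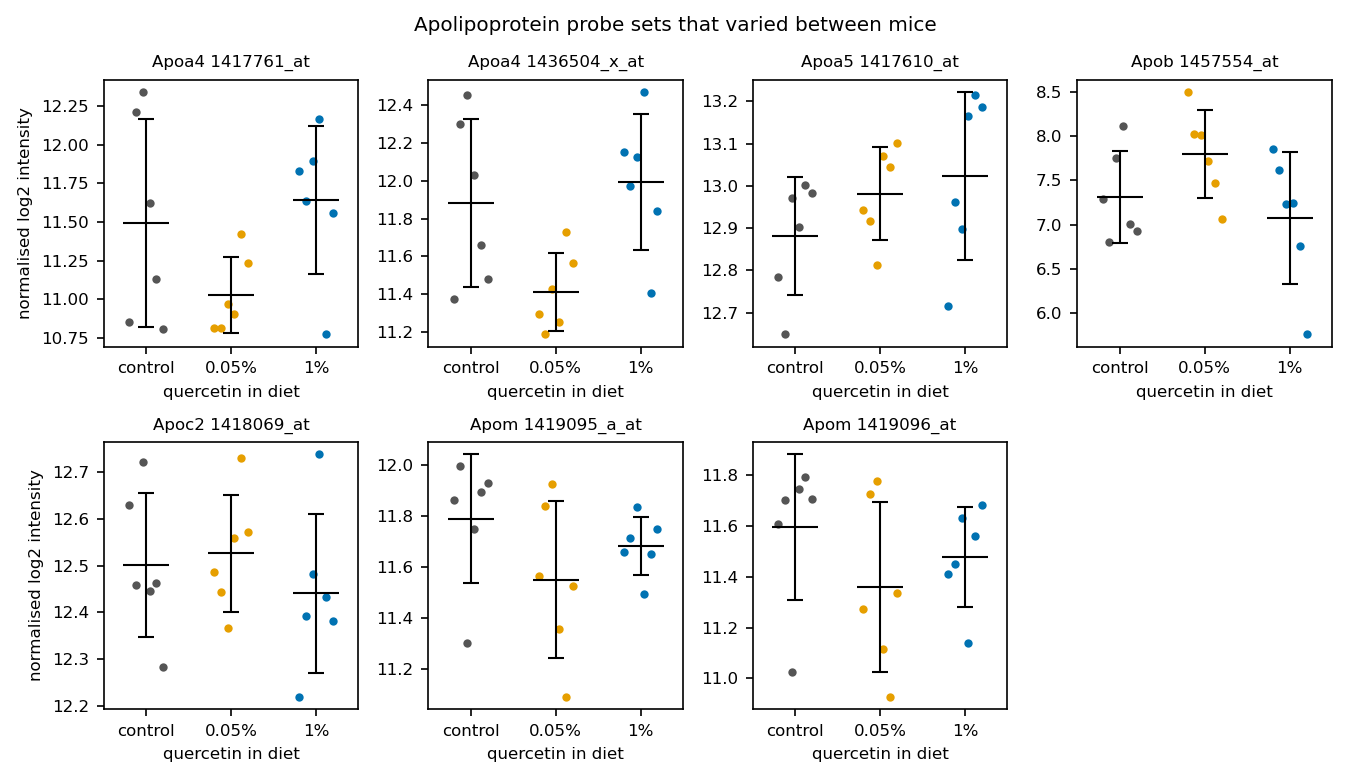
Normalised log2 intensity of the 7 apolipoprotein probe sets with a spread of 0.1 or more between mice of 1 diet, with 1 point for each mouse, a bar at the mean and whiskers of 1 SD (n = 6 mice per diet). Scales differ between panels. Both Apoa4 panels have their lowest mean at 0.05%, and in both Apom panels 1 control mouse lies far below the other 5.

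Apob was read by a bright and a dim probe set whose differences between diets had unlike sizes. After quantile normalisation their signs were also opposite for 1% against control and for 1% against 0.05%. The bright one, 1455593_at, ran from 13.34 to 13.43 on the control diet, 13.40 to 13.48 at 0.05% and 13.39 to 13.54 at 1%, with log2 differences of 0.03 to 0.06 between diets (adjusted p of 0.835 or more, limma). The dim one, 1457554_at, ran from 6.80 to 8.12 on the control diet, 7.06 to 8.50 at 0.05% and 5.76 to 7.85 at 1%. Its log2 difference was 0.48 ± 0.31 for 0.05% against control (adjusted p = 0.865, limma), -0.24 ± 0.31 for 1% against control (adjusted p = 0.892) and -0.72 ± 0.31 for 1% against 0.05% (adjusted p = 0.495). The exact permutation p between the doses was 0.0714, and 0.0368 in values as deposited. The lowest value, 5.76, belonged to 1% replicate 6, and without that mouse the difference from the control diet was 0.025 and that between the doses -0.46. Within diets the 2 probe sets had r = 0.81 after quantile normalisation, r = 0.47 after the median shift and r = 0.30 in values as deposited.

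The regulators of lipolysis Apoa5 and Apoc2 passed no test. Apoa5 had log2 values of 12.65 to 13.00 on the control diet, 12.81 to 13.10 at 0.05% and 12.72 to 13.21 at 1%. Its log2 difference was 0.14 ± 0.10 for 1% against control (adjusted p = 0.752, limma) and 0.10 ± 0.10 for 0.05% against control (adjusted p = 0.915). At each dose, 3 of 6 mice lay above every control mouse. In values as deposited these differences were 0.03 and 0.01, and after the median shift 0.08 and -0.01. Apoc2, the activator of lipoprotein lipase, ran from 12.28 to 12.72 on the control diet, 12.37 to 12.73 at 0.05% and 12.22 to 12.74 at 1%. Its log2 difference was -0.06 ± 0.10 for 1% against control (adjusted p = 0.920) and 0.03 ± 0.10 for 0.05% against control (adjusted p = 0.985). As deposited these differences were -0.15 and -0.04, and after the median shift -0.11 and -0.07. Without control replicate 2 the Apoa5 difference for 0.05% against control was 0.052.

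The other 9 probe sets were those of Apoa1, Apoa2, Apoc1, Apoc3, Apoe and the bright one of Apob. After quantile normalisation their spread between mice of 1 diet was under 0.1 (SD from 0.02 to 0.06). That put them among the lowest 0.411% of all probe sets tested. The brightest, Apoa1 1419232_a_at, had the highest intensity of the array on 2 of 18 arrays and took only 3 different values after quantile normalisation, and whether brightness limited the spread of the 9 was not tested. Their log2 differences after quantile normalisation ran from -0.04 to 0.06 for 1% against control, from -0.04 to 0.05 for 0.05% against control and from -0.05 to 0.03 for 1% against 0.05%, with adjusted p of 0.835 or more. The 95% intervals of these differences reached from -0.18 to 0.19 at the widest. For these 9 the SE and the intervals rest largely on the spread that limma takes from all probe sets. Apoc1, for example, had a spread of 0.02 between mice of 1 diet and an SE of 0.06. Of the 16 probe sets, 11 were among the brightest 1% of the array, the 9 included, where quantile normalisation replaces each value by the mean of its rank over the arrays. The spread of the 9 was 0.06 to 0.09 as deposited and 0.10 to 0.15 after shifting each array to a common median. After that shift none of the 9 was under 0.1, and Apoa5 and Apoc2, at 0.13 each, lay within their range. Below, steady and varying refer to the spread after quantile normalisation only.

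**Figure D3:**
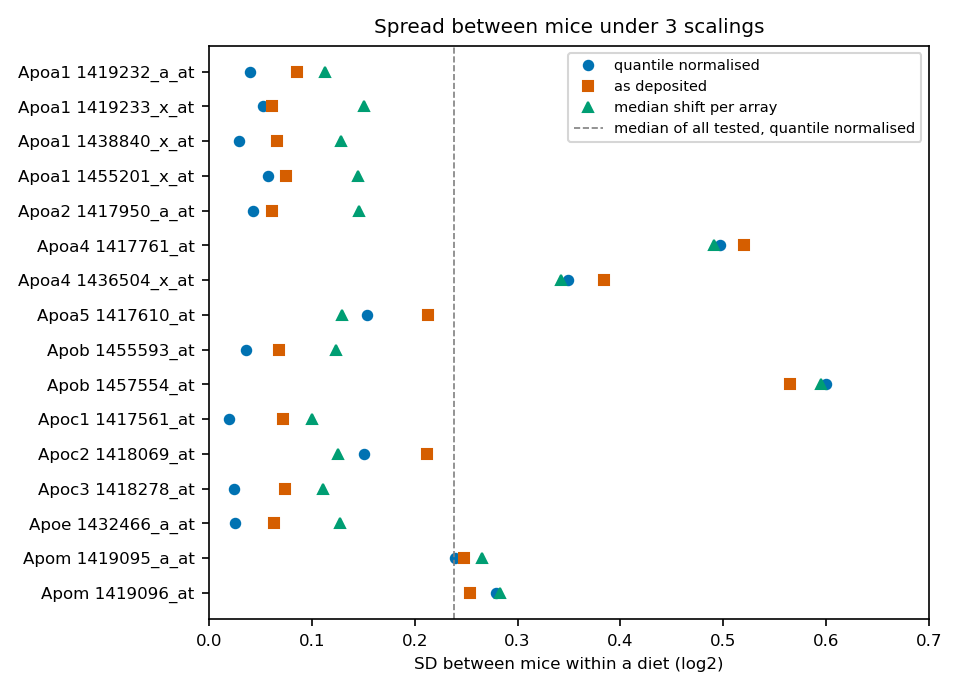
Standard deviation between mice of 1 diet, on the log2 scale, for each apolipoprotein probe set under quantile normalisation, as deposited and after a median shift per array. The dashed line is the median of all probe sets tested after quantile normalisation. Apoa4 and the dim Apob probe set lie right of the line under all 3 scalings, while Apoa1, Apoa2, Apoc1, Apoc3, Apoe and the bright Apob probe set lie left of it.

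In values as deposited, all 9 steady probe sets were lower at 1% than on the control diet, by log2 differences of -0.16 to -0.05, beside a median of -0.05 over all probe sets tested and -0.10 over the brightest 1%. Exact permutation tests, two-sided, gave p under 0.05 for 8 of the 9 in these values, beside 4.93% of all probe sets tested and 18.8% of the 451 brightest. The 8 include all 4 Apoa1 probe sets, which read 1 gene, beside those of Apoa2, Apoc1, Apoc3 and Apoe. They are not independent results, since the 9 had a median pairwise correlation of 0.78 within diets as deposited. After the median shift 3 of the 9 had an exact p under 0.05, beside 6.72% and 18.2%. After quantile normalisation it was also 3 of 9, beside 7.16% and 17.1%. Of the quantile normalised 3, Apoc1 and Apoc3 were lower at 1% and the bright Apob probe set was higher (0.06, exact permutation p = 0.0216). The sign for 1% against control differed between scalings for 2 of the 4 Apoa1 probe sets (1419232_a_at and 1438840_x_at), Apoa2 and the bright Apob probe set. For 0.05% against control it differed for all 4 Apoa1 probe sets, Apoa2 and the bright Apob probe set, which were positive after quantile normalisation and negative under both other scalings. In limma, which takes part of each spread from all probe sets, the smallest adjusted p of the 9 for 1% against control was 0.984 as deposited, 0.817 after the median shift and 0.835 after quantile normalisation.

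Apoc3 and Apoc1 were the members whose exact p for 1% against control was under 0.05 in each of the 3 scalings, with negative differences in all of them. Apoc3, the inhibitor of lipoprotein lipase, had log2 values of 13.32 to 13.36 on the control diet, 13.28 to 13.33 at 0.05% and 13.27 to 13.37 at 1%. At 1% and at 0.05%, 5 of 6 mice lay below every control mouse, and the sixth mouse at 1% lay above them all. In deposited intensity the Apoc3 medians were 10908 on the control diet, 10087 at 0.05% and 9867 at 1%. The Apoc3 difference for 1% against control was -0.04 ± 0.06 in log2 after quantile normalisation (adjusted p = 0.912, limma), -0.11 after the median shift and -0.16 as deposited, with exact permutation p = 0.0476, 0.0368 and 0.00649. For 0.05% against control it was -0.04 ± 0.06 (adjusted p = 0.948), -0.13 and -0.11, with exact permutation p = 0.00433, 0.0779 and 0.0498.

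Apoc1 had log2 values of 13.17 to 13.21 on the control diet, 13.12 to 13.19 at 0.05% and 13.14 to 13.17 at 1%. At 1%, 6 of 6 mice lay below the control mean and 4 below every control mouse. The Apoc1 difference for 1% against control was -0.02 ± 0.06 after quantile normalisation (adjusted p = 0.950, limma), -0.09 after the median shift and -0.13 as deposited, with exact permutation p = 0.0108, 0.0173 and 0.0152. These differences are small on the log2 scale, and none of the exact tests was adjusted. Each scaling had its own 48 exact tests on the members. Those with a p under 0.05 numbered 7 after quantile normalisation, 6 after the median shift and 14 as deposited. Over all probe sets tested, the share per comparison was 6.55% to 9.43%, 6.72% to 9.23% and 4.03% to 5.77%, in that order. Several of the 14 read Apoa1, so they are not independent results.

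For the high-density lipoprotein genes Apoa1 and Apoa2 and for Apoe, the size of the difference depended on the scaling. Of the 4 Apoa1 probe sets, 1419232_a_at is the brightest, with deposited intensity medians of 15002 on the control diet, 14125 at 0.05% and 13877 at 1%. For 1% against control it gave a log2 difference of 0.02 ± 0.06 after quantile normalisation and -0.15 as deposited (exact permutation p = 0.545 and 0.0260), with -0.10 and p = 0.0216 after the median shift. The other Apoa1 probe sets gave -0.02 to 0.00 after quantile normalisation and -0.15 to -0.11 as deposited. Apoa2 was at 0.03 ± 0.06 and -0.10 (exact permutation p = 0.411 and 0.0303), with -0.06 and p = 0.394 after the median shift. Apoe, the ligand of the uptake receptors, was at -0.01 ± 0.06 and -0.14 (exact permutation p = 0.522 and 0.00866), with -0.10 and p = 0.0887 after the median shift. Apoe medians in deposited intensity were 11696 on the control diet, 10821 at 0.05% and 10498 at 1%.

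Correlations between the varying members depended on the scaling. Among the 7 varying probe sets, the 19 pairs of different genes had correlations of -0.71 to 0.43 within diets over the 18 mice, with a median of -0.23 after quantile normalisation. The lowest was that of Apoc2 with Apom 1419096_at, which was -0.49 after the median shift and -0.20 as deposited. As deposited, Apoa5 with Apoc2 had r = 0.69 and Apoa4 1436504_x_at with Apoc2 r = 0.53, against 0.41 and 0.43 after quantile normalisation. The 9 steady probe sets had a median pairwise correlation of 0.12 after quantile normalisation, 0.95 after the median shift and 0.78 as deposited. All these correlations describe 18 arrays and carry no test.

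Of the 12871 other genes tested, the one most like Apom within diets was C1ra, the complement protease, at r = 0.95 (Spearman's rho = 0.88) over 18 mice, and no lower than 0.935 with 1 mouse left out. C8b, a subunit of the membrane attack complex, followed at r = 0.93 (rho = 0.76). Both held after the median shift, at 0.95 and 0.89. The log2 difference of C1ra was -0.06 for 0.05% against control and -0.04 for 1% against control, and that of C8b was -0.34 and 0.03. For Apoa4 the most alike were Marchf2 (r = 0.77) and Rptor (r = 0.77), and for Apoa5 they were Psma5 (r = 0.91) and Zbtb22 (r = 0.90). After the median shift these were 0.78 and 0.73 for Apoa4, and 0.78 and 0.61 for Apoa5.

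The nearest genes of Apoc2 were Vps9d1 and Coasy (r = 0.84 each), those of Apoe Rad1 and Ndufaf4 (r = 0.85 each), and all 4 stayed at 0.70 or more after the median shift. For the other steady probe sets r was lower after the median shift. Apob had Gsk3b and Gclc (r = 0.90 and 0.89, then 0.34 and 0.38), and Apoc3 had Sumf1 and Kcnmb2 (r = 0.82 and 0.79, then -0.09 and 0.22). Apoc1 had Yars and Plut (r = 0.80 and 0.75, then 0.05 and 0.42), Apoa1 had Dus4l and Cep97 (r = 0.79 and 0.78, then 0.52 and 0.53), and Apoa2 had Ankrd17 and Rnf139 (r = 0.82 and 0.80, then 0.53 and 0.58). Each was the highest of many correlations over 18 mice, so these values describe likeness and nothing more.

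**Figure D4:**
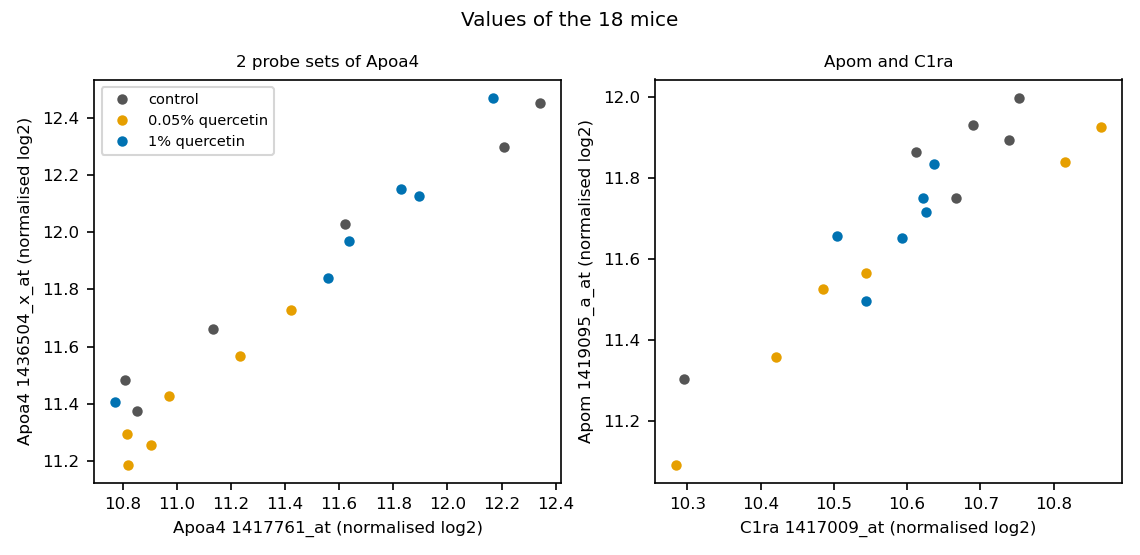
Normalised log2 values of the 18 mice, coloured by diet. The left panel sets the 2 Apoa4 probe sets against each other and the right panel sets Apom against C1ra, its most alike gene. Mice of all 3 diets lie close to 1 line in both panels.

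Genes of lipoprotein metabolism around the members were read by 1 probe set per gene, the brightest, among 12881 genes tested. None of the tested genes on the 5 lists was called in any comparison, beside 0.00776% of all genes at 1% and 0% at 0.05%, both against control, and 0% between the doses. At an unadjusted p under 0.05 the shares of all genes were 8.52%, 5.22% and 8.74% in that order.

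Of 21 genes of particle assembly and secretion, 16 were lower and 5 higher at 1% than on the control diet, with a median log2 difference of -0.07 beside 0.00 over all genes, and 1 was lower at an unadjusted p under 0.05. That gene was Dgat2, the acyltransferase that completes triglycerides, with 11.00 ± 0.18 at 1% and 11.40 ± 0.26 on the control diet (SD, n = 6 each), a log2 difference of -0.40 ± 0.12 (adjusted p = 0.433, limma). Mttp, the transfer protein that loads lipid onto Apob, was at -0.16 ± 0.09, and the secretory coat genes Sar1a and Sec24a at -0.23 ± 0.12 and -0.19 ± 0.10, with Sec24a at -0.12 without control replicate 2. At 0.05% the list's median was 0.00, and Apobec1, the editing enzyme that shortens the Apob product, was at 7.05 ± 0.16 against 7.50 ± 0.42 on the control diet, a log2 difference of -0.45 ± 0.15 (adjusted p = 0.746), with Sar1a at -0.16 ± 0.12.

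Among 22 tested genes of receptors, lipases and lipid transfer, 16 were lower and 6 higher at 1% than on the control diet, with a median of -0.08. Angptl4, an inhibitor of lipoprotein lipase, measured 10.43 ± 0.23 at 1% and 9.50 ± 0.97 on the control diet, a log2 difference of 0.93 ± 0.34 (adjusted p = 0.523, limma). The sterol exporters Abcg5 and Abcg8 were at -0.41 ± 0.14 and -0.30 ± 0.16, and Angptl8, another inhibitor of lipoprotein lipase, at -0.87 ± 0.51. At 0.05% the median was 0.02, Vldlr, the receptor of very-low-density particles, was at 1.08 ± 0.47 (adjusted p = 0.814), and Npc1, a lysosomal cholesterol transporter, at 0.31 ± 0.15. Vldlr was dim, at 5.97 ± 1.02 at 0.05% and 4.89 ± 1.08 on the control diet (SD), near the filter at 4.69. With 1 mouse left out its difference ran from 0.86 to 1.51. Between the doses, 5 of the 22 were lower at 1% at an unadjusted p under 0.05 and none higher.

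Of 27 tested transcription regulators, 15 were higher and 12 lower at 1% than on the control diet, with a median of 0.02. Nr2f2, an orphan nuclear receptor, was at -0.42 ± 0.16 (adjusted p = 0.529, limma), Srebf1, the regulator of lipogenesis, at -1.01 ± 0.51, Usf1, an E-box factor, at 0.20 ± 0.11 and Esrra, an orphan receptor, at -0.26 ± 0.16. Srebf1 was at -0.64 without control replicate 2, Esrra at -0.14 and Usf1 at 0.13 without 1% replicate 1. At 0.05%, 4 were higher and 1 lower at an unadjusted p under 0.05. The leading ones were Ppara, at 10.53 ± 0.23 against 9.72 ± 0.35 on the control diet (0.81 ± 0.18, adjusted p = 0.567), and Nr1d1, a repressor of the circadian clock, at 6.02 ± 0.52 against 4.98 ± 0.65 (1.05 ± 0.33, adjusted p = 0.724). Nr2f2, lower at 1%, was higher at 0.05% (0.44 ± 0.16, adjusted p = 0.777, limma). Between the doses Nr2f2 was at -0.86 ± 0.16 (adjusted p = 0.116). In that comparison 3 of the 27 were higher and 3 lower at 1% at an unadjusted p under 0.05.

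The list of other apolipoproteins and associated enzymes had 10 tested genes, 5 higher and 5 lower at 1% than on the control diet, with a median of -0.01. Apobr, an apolipoprotein B receptor, was dim, at 5.50 ± 0.11 at 1% and 5.18 ± 0.13 on the control diet (SD). Its log2 difference was 0.32 ± 0.11 (adjusted p = 0.504, limma). The paraoxonases Pon3 and Pon1 were at 0.14 ± 0.08 and 0.09 ± 0.10, and Apof at -0.06 ± 0.06. At 0.05% Pon3 was at 0.11 ± 0.08 and Pon1 at 0.11 ± 0.10. With 1 mouse left out the lowest values were 0.049 for Pon1 at 1%, and 0.067 for Pon1 and 0.071 for Pon3 at 0.05%, and Apof was at -0.037 without 1% replicate 1.

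Acute phase genes, which the liver induces in inflammation, were set beside the members. Of 20 genes, 15 were lower and 5 higher at 0.05% than on the control diet, with a median of -0.26, and 18 were higher and 2 lower at 1% than at 0.05%, with a median of 0.23. Orm1, an acute phase glycoprotein, was at -0.28 ± 0.17 (adjusted p = 0.864, limma) and Itih3, an inhibitor chain, at -0.24 ± 0.18 for 0.05% against control. For 1% against control 14 were higher, the fibrinogen genes Fgb, Fga and Fgg were at 0.17 ± 0.08, 0.16 ± 0.10 and 0.06 ± 0.06, and Steap4, a metalloreductase, was at 0.82 ± 0.64. The Fgb difference was -0.01 and that of Fgg -0.06 in values as deposited. The part of this list in the Apoa4 values was not tested. With 1 mouse left out, Itih3 ran from -0.38 to -0.15 and Steap4 from 0.53 to 1.12, and Fgg was at 0.040 without control replicate 2.

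**Figure D5:**
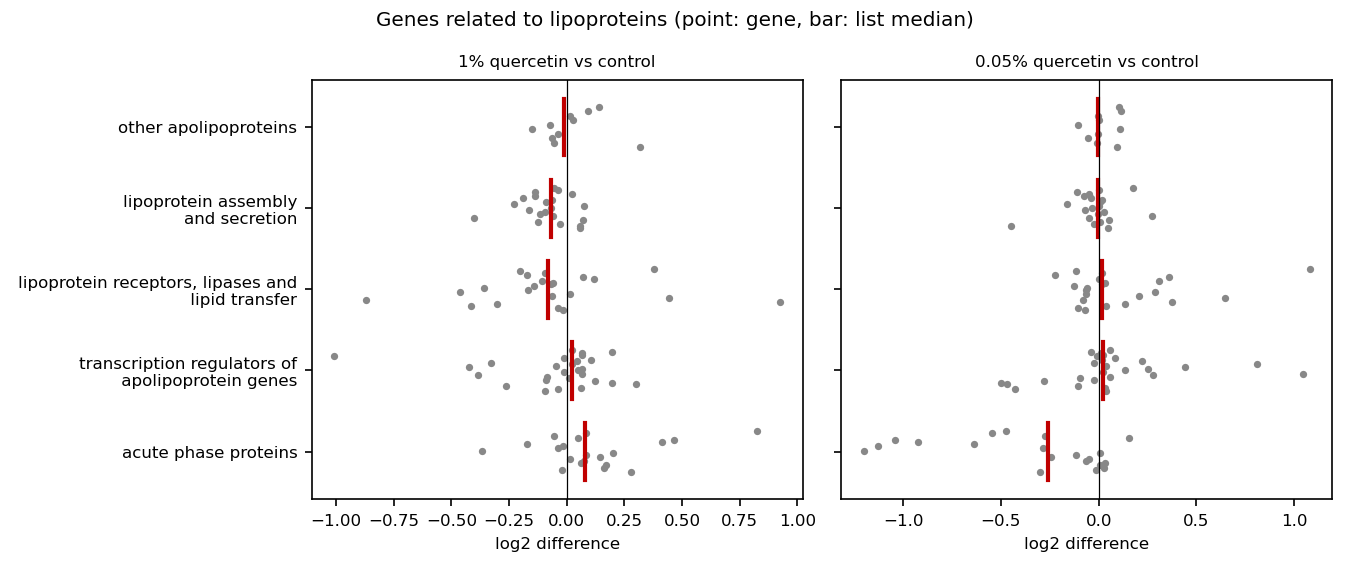
Log2 differences of the tested genes on the 5 lists, with 1 grey point for each gene and a red bar at the list median, for 1% quercetin against control (left) and 0.05% quercetin against control (right). The list medians lie between -0.08 and 0.08 on the left, and on the right the acute phase median stands at -0.26 while the other 4 lie near 0.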

How the data were processed

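Each array held the biotin-labelled RNA of 1 mouse, per the labels' protocols. The authors deposited 1 linear intensity per probe set and array, from 0.0118 to 18108. How the signal was computed and scaled is not given in the sources used here. Of 45101 probe sets, 64 controls were left out, 34945 had 1 gene symbol, 932 several and 9160 none.

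Log2 of intensity plus 16 was quantile normalised, since array medians differed, and probe sets with a mean above the 40th percentile (log2 value of 4.69) were kept. limma 3.58.1 under R 4.3.3 fitted 3 diet means (15 residual and 3.95 prior degrees of freedom), two-sided, with Benjamini-Hochberg adjustment over 27022 probe sets. The median standard error of a log2 difference was 0.13, which the number of arrays limits. The other scalings were values as deposited and a shift of each array to a common median. Mice are taken as independent, though cages were shared.

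The members and gene lists were chosen with earlier results of these data known. All member probe sets are named, with the 2 genes most alike each member's brightest probe set, and from each list the 4 smallest p for 1% against control and 2 for 0.05% against control. Exact permutation tests were added after seeing the data.

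Marker lists of hepatocytes (7 genes tested), macrophages (9), lymphocytes (2), stellate cells (7), cholangiocytes (4) and adipocytes (1) held no called gene. Over all genes the called share was 0.00776% for 1% against control and 0% in the other comparisons. Lists this short would therefore rarely hold a called gene.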

Additional observations from a re-analysis of the deposited data

Results flagged for a closer look

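The lowest or highest of 6 mice stood apart from the other 5 in 9 of 129 sets of values examined (43 probe sets on 3 diets), where the gap over the range passed Dixon's critical value of 0.625. Chance alone flags about 1 in 20. Control replicate 3 was low on both Apom probe sets, at 11.30 with the other controls from 11.75 to 12.00 and at 11.03 with the others from 11.61 to 11.79. The same mouse was high for Vldlr, at 7.04 with the others from 4.18 to 4.80. On Apoa1, 1% replicate 5 was at 13.74 with the other mice tied at 13.80 on 1419232_a_at, and control replicate 1 at 13.63 with the others from 13.49 to 13.54 on 1419233_x_at. The tie at 13.80 comes from the rank means of quantile normalisation, so the 1419232_a_at flag does not show a mouse apart. In deposited intensity 1% replicate 1 (12562) lay below 1% replicate 5 (12670). Apoa2 was at 13.53 in 0.05% replicate 4, with the others from 13.60 to 13.61, and the bright Apob probe set at 13.48 in 0.05% replicate 1, with the others from 13.40 to 13.43. Abcg5 was at 8.75 in 0.05% replicate 3, with the others from 8.998 to 9.066, and Fgb at 13.63 in 1% replicate 2, with the others from 13.74 to 13.80.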

How the results depend on the processing

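None of the 16 member probe sets was called in any of 1278 alternative values (limma). Called probe sets for 1% against control, 2 in the results above, numbered 1 with values as deposited, with 1 added before log2, with the filter at the 60th percentile, with 1 probe set per gene and with only the 12 arrays compared. Leaving out each mouse gave 0 to 5. For 0.05% against control, 1 above, there were 0 under each of those and with the replicate number as a block (replicate block), 2 with no filter, and 0 to 2 with a mouse left out. For 1% against 0.05%, 3 above, there were 5 at the 60th percentile, 9 with eBayes trend and robust, 23 with 12 arrays, 0 with 1 probe set per gene and 0 with the replicate block, and 1 to 6 with a mouse left out. Among the 3 diets, 3 above, there were 1 as deposited, 1 after the median shift, 1 with 1 probe set per gene, 0 with 1 added, 0 with the replicate block, 8 with trend and robust, and 1 to 8 with a mouse left out. The highest leave-out counts were all without control replicate 3. Same-numbered mice of different diets had correlations of -0.40 to 0.26 in their deviations from diet means, over 0.1 in 4 of 18 pairs, so the replicate numbers were not taken to pair mice, and the replicate block shows only how the counts move. Signs turned, as deposited, for Pon1 (-0.031), Fgb (-0.010) and Fgg (-0.059) at 1% and Apoc2 (-0.039) at 0.05%, and after the median shift for Fgg (-0.016) at 1% and Apoa5 (-0.013), Apoc2 (-0.066) and Pon1 (-0.0034) at 0.05%. Among steady probe sets, signs turned as deposited and after the median shift at 1% for Apoa1 1419232_a_at (-0.15 and -0.10), Apoa1 1438840_x_at (-0.11 and -0.070), Apoa2 (-0.10 and -0.058) and bright Apob (-0.053 and -0.0098). At 0.05% they turned for Apoa1 1419232_a_at (-0.093 and -0.12), 1419233_x_at (-0.062 and -0.088), 1438840_x_at (-0.061 and -0.087) and 1455201_x_at (-0.081 and -0.11), Apoa2 (-0.071 and -0.098) and bright Apob (-0.027 and -0.053). Between the doses they turned as deposited for Apoa2 (-0.031), bright Apob (-0.027), Apoc3 (-0.049) and Apoe (-0.055), and after the median shift for Apoa1 1419232_a_at (0.016), Apoa1 1438840_x_at (0.018) and Apoc1 (0.033). Without 1 mouse, at 0.05%, Apoa1 1419233_x_at ran from -0.0082 to 0.021, Apoa1 1455201_x_at from -0.00019 to 0.040 and Apoa2 from -0.012 to 0.024. Apoa1 1438840_x_at ran from -0.0038 to 0.012 at 1% and from -0.013 to 0.0017 between the doses, where Apoc1 ran from -0.013 to 0.00068 and Apoc3 from -0.011 to 0.0096. Without 1 mouse, dim Apob 1457554_at for 1% against control ran from -0.39 to 0.025 and Apoc2 for 0.05% against control from -0.018 to 0.071. Medians as deposited and after the median shift were -0.14 and -0.097 at 1%, -0.081 and -0.11 at 0.05%, and -0.052 and 0.018 between the doses for the 9 steady probe sets. They were -0.12 and -0.077 at 1% and -0.065 and -0.092 at 0.05% for other apolipoproteins, and -0.16 and -0.12 at 1% and -0.056 and -0.083 at 0.05% for particle assembly, with -0.11 between the doses as deposited. The cause of these shifts was not tested. The number of arrays limits the precision.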
